A study of Gallus gallus with 32 samples.

Results

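SUFU (suppressor of fused) encodes a repressor of Hedgehog signalling, and it was followed in the anterior pituitary of chickens on every array of a comparison of a Fat and a Lean line at 4 ages. Its members are all probes that the platform's probe table names SUFU, which are 2 of 19200 spots. The first probe, in row 18 and column 8 of grid block 5, gave a usable spot on 32 of 32 arrays. The second, in row 8 and column 9 of grid block 9, gave one on 4 of 32 arrays and was too dim to be tested, so the values below are those of the first probe. SUFU is 1 of 5728 tested genes. It was chosen by its log2 difference between the lines in these same data. Its difference between lines is therefore given as a description with no test, and the tests below concern age, other genes and the genes beside it on the chromosome.

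The birds belonged to lines selected in opposite directions for abdominal fat weight over 7 generations, a genotype that the labels call FL, and were raised under 1 standard broiler protocol. Fat and Lean birds of 1, 3, 5 and 7 weeks make 8 groups of 4 biological replicates, each an individual pituitary sample. The labels name no other treatment. On each of the 32 spotted Del-Mar 14 K arrays amplified RNA of 1 sample was labelled with Cy3 and hybridised beside a Cy5-labelled pool made from the 32 RNAs. The value used throughout is the log2 ratio of sample over pool, and ratios of different probes cannot be compared as levels. As samples were always in Cy3 and the pool in Cy5, a value of 0 need not equal the pool for a given probe. Between 14008 and 16134 spots per array were usable, and 14648 probes were tested. Probes for the hormones GH, PRL, POMC, TSHB, FSHB and CGA and for the pituitary factor POU1F1 all passed the filter, at brightness percentiles of 60.9 to 90.7 among the tested probes.

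The arrays labelled replicate 2 of week 7, 1 from each line, cannot both be what their labels say. In their files 54.1% of spots had the same area and the same quality score, while no other pair of files exceeded 0.844%, and both headers name the same slide image. The ratios of these files correlated across probes at 0.992. Which line the scan belongs to is not settled, so both arrays were left out, which leaves 30 arrays and 3 per line at week 7, and the line difference and the age tests of SUFU are also given with all 32 arrays.

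Hedgehog proteins are secreted signals that act through the receptor Patched. Patched holds the membrane protein Smoothened inactive until a ligand binds, and active Smoothened at the primary cilium releases the GLI transcription factors. SUFU binds GLI proteins in the cytoplasm and nucleus, keeps them from activating their targets and favours their processing into repressor forms. In vertebrate embryos Hedgehog signalling takes part in forming the pituitary from the oral ectoderm.

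SUFU was lower in the Fat line than in the Lean line at all 4 ages. At week 1 the 4 lean arrays had log2 ratios of 0.56, 0.54, 0.61 and 0.17, and the 4 fat arrays had -0.39, -0.06, -0.74 and -0.40. At week 3 the lean arrays had 0.38, 0.19, 0.55 and 0.83, and the fat arrays had -0.80, -1.03, -0.51 and -0.15. Every lean array lay above every fat array at both of these ages. At week 5 the lean arrays had 0.80, 0.40, 0.68 and 1.03, and the fat arrays had -0.57, -0.44, -0.13 and -0.13. At week 7 the lean arrays had 0.31, 1.29 and 0.62, and the fat arrays had -0.37, 0.24 and -0.47. The lines did not overlap at these ages either, but the gap was narrowest at week 7, where 1 fat array came close to the lowest lean array.

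**Figure D1:**
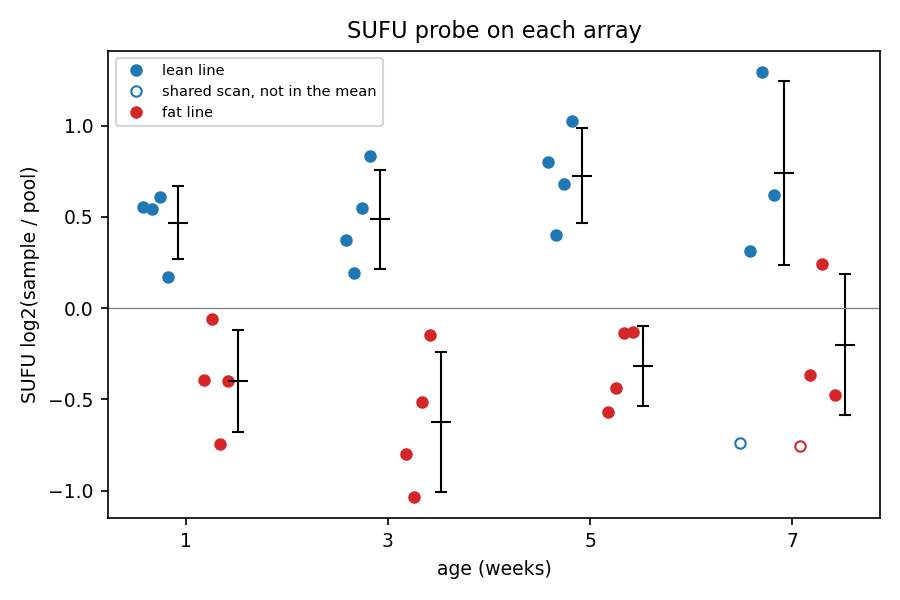
SUFU log2 ratio of sample over pool (vertical axis) against age in weeks, with 1 filled point per array, lean in blue and fat in red. Black bars are the mean and SD of each group (n = 4, or 3 at week 7), and open points are the 2 arrays that hold 1 scan. All 15 lean points lie above 0 and 14 of the 15 fat points lie below it.

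Over all ages the 15 lean arrays ranged from 0.17 to 1.29 with a median of 0.56, and all 15 were positive. The 15 fat arrays ranged from -1.03 to 0.24 with a median of -0.40, and only 1 of them, replicate 3 of week 7, was positive. That array stood above 2 lean arrays of younger birds, and the other 14 fat arrays stood below every lean array. When each fat array was set against the lean array of the same age and replicate number, it was lower in 15 of 15 pairs, by -1.37 to -0.57 with a median of -1.05. Without overlap at any age, no pair could have gone the other way.

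The group means ranked all 4 lean groups above all 4 fat groups. They were 0.74 ± 0.50 (SD, n = 3) in lean birds of week 7, 0.73 ± 0.26 (SD, n = 4) at week 5, 0.49 ± 0.27 (SD, n = 4) at week 3 and 0.47 ± 0.20 (SD, n = 4) at week 1. Then followed the fat groups with -0.20 ± 0.39 (SD, n = 3) at week 7, -0.32 ± 0.22 (SD, n = 4) at week 5, -0.40 ± 0.28 (SD, n = 4) at week 1 and -0.62 ± 0.38 (SD, n = 4) at week 3. Of the steps between neighbours in this order, only that from the lowest lean to the highest fat group, 0.67, was larger than the larger SD of the groups it separates.

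The mean difference over ages, fat minus lean, was -0.99 (SE 0.11), which is a 1.99-fold higher ratio in the Lean line. This SE takes no account of the choice of SUFU by the same difference. By age it was -0.87 (SE 0.21) at week 1, -1.11 (SE 0.21) at week 3, -1.04 (SE 0.21) at week 5 and -0.94 (SE 0.24) at week 7. Among the tested probes 0.696% were called for a line difference in either direction, and 0.437% were called lower in fat. SUFU had the third most negative line difference of all tested probes and ranked 9 by size in either direction. With all 32 arrays the mean difference was -0.93, and that at week 7 was -0.71. In the authors' own normalized table it was -1.63 over ages, a 3.09-fold higher ratio in the Lean line, from the 28 values that the table gives on these arrays. The missing values were of fat arrays, week 3 replicate 2 and week 5 replicate 1. In that table the lines overlapped at week 3, where fat replicate 4 had 0.72 and lean replicate 2 had 0.67, but not at the other ages. Its fat group means were -0.50, -0.61, 0.005 and 0.20 at weeks 1, 3, 5 and 7. The sign at weeks 5 and 7 thus differed from that of the ratios computed here. In a pituitary sample, fewer cells that make a transcript and less of it per cell cannot be told apart.

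The 2 week 7 arrays that hold 1 scan gave -0.74 under the lean label and -0.76 under the fat label. Both values are below all 15 lean arrays and within the range of the fat arrays.

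The dyes were then read apart. Relative to the median of the array, the Cy3 signal of the SUFU spot was lower in fat by -0.95, -1.36, -1.36 and -0.57 at weeks 1, 3, 5 and 7, with a mean of -1.06. The Cy5 signal of the pool, which is the same RNA on every array, differed by -0.08, -0.25, -0.34 and 0.37, with a mean of -0.08. At weeks 1, 3 and 5 the Cy5 difference had the same sign as that in Cy3, and the ratio difference was smaller than the Cy3 difference. At week 7 the signs were opposite, so both dyes added to the ratio difference, Cy3 the more. On the fat array of week 5 replicate 1 both dyes were low, at -2.29 for Cy3 and -1.81 for Cy5, and its log2 ratio of -0.57 was the lowest of its group.

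**Figure D2:**
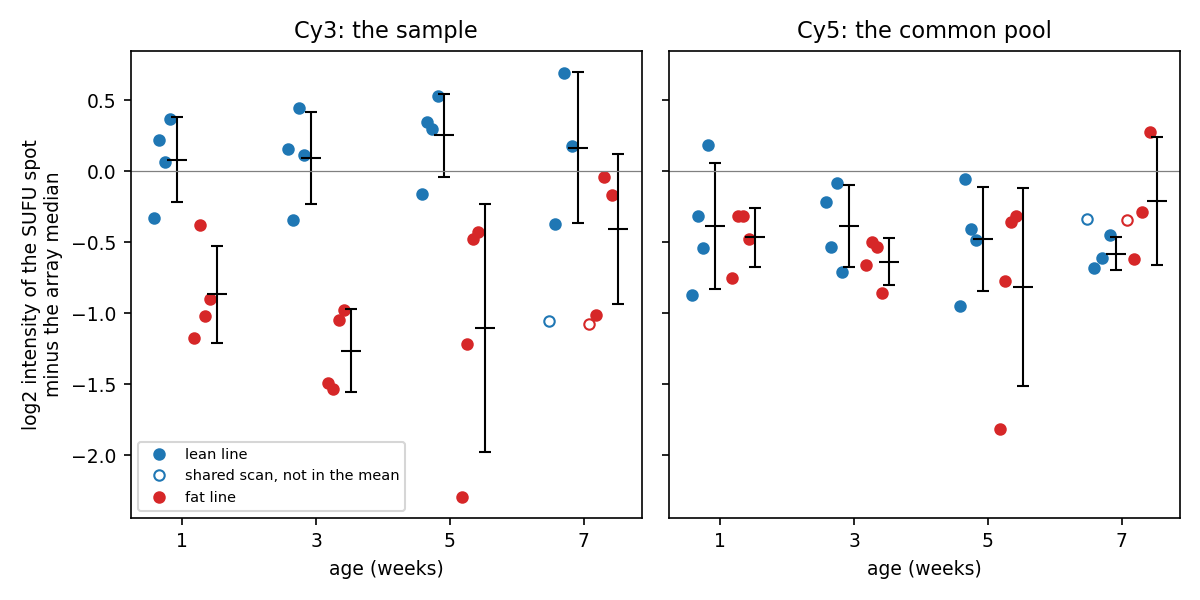
Log2 intensity of the SUFU spot minus the median of its array, for the sample in Cy3 (left) and the common pool in Cy5 (right), against age in weeks. Points are arrays, black bars are the mean and SD of each group, and open points are the 2 arrays that hold 1 scan. The mean fat minus lean difference is -1.06 in Cy3 and -0.08 in Cy5.

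The spot itself was of moderate brightness, at percentile 38.9 of the tested probes. Its Cy3 signal was 1.82 to 12.3 times the local background, with a median of 5.94, and its Cy5 signal 3.46 to 16.9 times, with a median of 11.8. The spread of SUFU within groups, an SD of 0.31, was at percentile 85.0 of the tested probes, whose median SD was 0.22. SUFU thus varied more between arrays of 1 group than most probes did. With 1 usable spot per array, differences between birds and noise of the spot cannot be told apart.

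The spots printed around SUFU served as a comparison. The median of the 24 spots within 2 rows and columns differed between lines by 0.03, -0.08, -0.00 and -0.33 at weeks 1, 3, 5 and 7, with a mean of -0.09. The week 7 value rested on 1 array, fat replicate 4, where the median around SUFU was -0.97 and SUFU itself -0.47. Without that array, a setting chosen after seeing the data for these spots, they differed by -0.06 at week 7 and SUFU by -0.80. Of the 18 tested among them, line differences ran from -0.69 to 0.17 with a median of -0.06, and 1 was called. It was PRKAB1, which encodes a regulatory subunit of the AMP-activated kinase, at -0.69 (limma adjusted p = 0.04), and it was singled out after its values were seen. Its part in the SUFU result was not tested.

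The files' headers place the arrays on several days. On 6 days both lines were present at the same age, which allows 10 comparisons within a day and an age. SUFU was lower in fat in 10 of 10, by -1.37 to -0.57. As the lines did not overlap at any age, this count was fixed by the values above and is no further check. With the day as a term in the model the mean difference over ages was -0.95.

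The second SUFU probe cannot be used as a check. Its Cy3 signal was 1.49 to 1.93 times background and its Cy5 signal 1.11 to 2.43 times, and Cy5 was marked bad on 28 of 32 arrays. The authors' table gives no value for it. When the marked spots were kept, its 30 ratios ran from -1.68 to 0.46, and their means were -0.49 in fat and -0.03 in lean birds. The difference was -0.46, of the same sign as that of the first probe, and the ratios of the 2 probes correlated over arrays at 0.52. These are descriptions of spots near background.

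Age was tested because the choice of SUFU did not use it. No change of SUFU with age passed the threshold. The moderated F test for any difference between the 4 ages gave an adjusted p of 0.389, where 5.37% of the tested probes were called. Week 7 was 0.24 above week 1 (SE 0.16, adjusted p = 0.308), with a 95% interval of -0.10 to 0.57, and 15.9% of the tested probes were called for that change. In lean birds it was 0.27 (adjusted p = 0.428) and in fat birds 0.20 (adjusted p = 0.663). The single steps were -0.10 from week 1 to 3, 0.27 from week 3 to 5 and 0.07 from week 5 to 7, with adjusted p of 1.00, 1.00 and 0.847, where 0.512%, 0.0614% and 0% of the tested probes were called. With all 32 arrays the change from week 1 to 7 was -0.018, so its sign depended on the shared scan. Without the arrays of replicate number 3 it was -0.047. With all 32 arrays the step from week 5 to 7 was -0.19 (adjusted p = 0.781), the other steps stayed at -0.10 and 0.27, and the F test gave an adjusted p of 0.859.

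Whether the line difference itself moved with age was tested by the interaction, and for SUFU it gave an adjusted p of 1.00, with 30 arrays as with 32. No probe was called for it (0 of 14648), while 639 had an unadjusted p under 0.05. The line difference at week 7 minus that at week 1 was -0.07, with a 95% interval of -0.74 to 0.59. The interval includes changes of over 0.5 in either direction, so these arrays do not show that the line difference was constant.

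Other genes of the Hedgehog pathway were read from a list of 133 genes, SUFU not among them, of which 55 were measured. Between the lines 1 of 55 was called, higher in fat, and none lower. Over all tested probes 0.259% were called higher and 0.437% lower. The median of the 55 genes was 0.05, against 0.01 for all tested probes, and 19 of 55 were lower in fat, against 46.2% of all tested probes. At an unadjusted p under 0.05 there were 13 of 55, against 16.2% of all tested probes. From week 1 to week 7 5 rose and 2 fell, where 8.9% of all tested probes rose and 6.98% fell, and the median was -0.04, against -0.02 for all tested probes. These counts take the brightest probe of a gene. For 20 of the 55 genes further probes were tested, 25 in all, and 9 of the 20 had probes on both sides of 0 between lines. None of the 25 was called between lines and 5 were called with age, as given below.

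**Figure D3:**
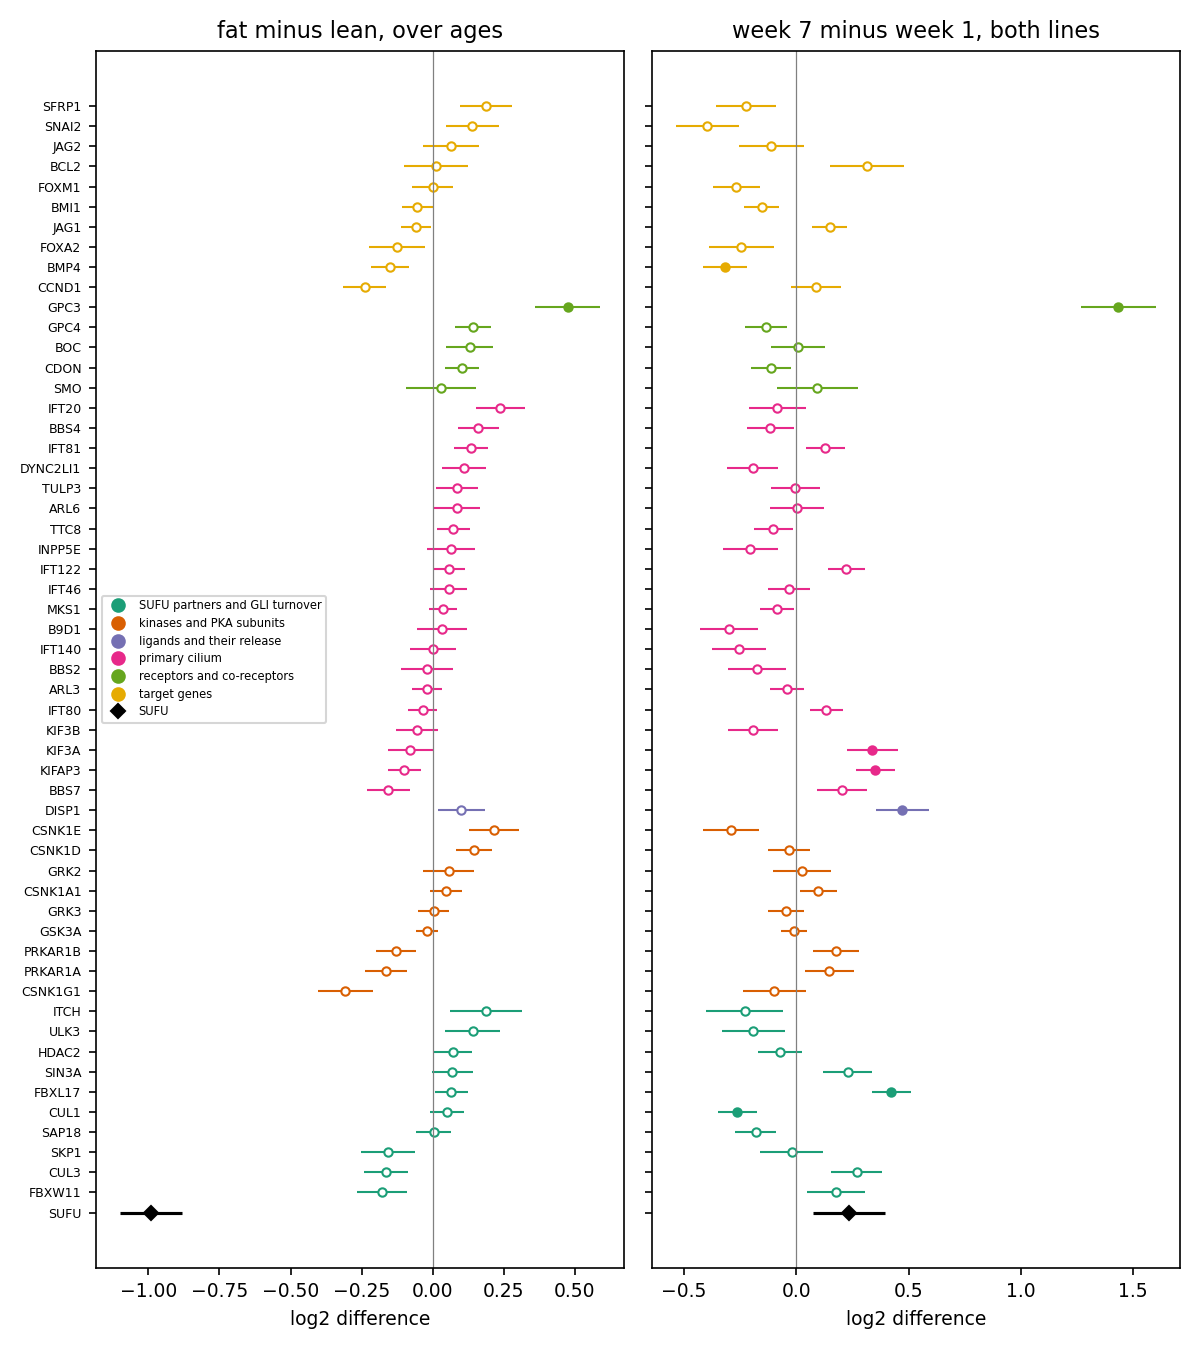
Log2 difference between lines (left) and between week 7 and week 1 (right) for the measured Hedgehog genes, coloured by role, with SUFU as a black diamond. Points are estimates with their SE, and filled circles pass the adjusted threshold. GPC3 is the only filled circle on the left, and 7 are filled on the right.

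The ligands and their release were nearly absent from the measured probes. DISP1, which lets lipid-bearing Hedgehog ligands leave the cells that make them, was the 1 of 9 measured. It did not pass between lines at 0.10 (SE 0.08, adjusted p = 0.533). With age it rose by 0.47 (SE 0.12, adjusted p = 0.0097).

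At the receptor level 5 of 11 genes were measured. GPC3, a cell-surface glypican that binds Hedgehog ligands and competes with Patched for them in mice, rose from week 1 to week 7 by 1.43 (SE 0.17, adjusted p = 3.52e-06). It was higher in fat by 0.48 (SE 0.11, adjusted p = 0.047). A second GPC3 probe gave the same direction with age, 1.20 (adjusted p = 9.74e-05), but -0.02 between lines (adjusted p = 0.958), so the line call rests on 1 of 2 probes. It was also lost in 31 of 48 other settings, with adjusted p from 0.00600 to 0.297. The co-receptors BOC and CDON, which present ligand to Patched, differed between lines by 0.13 (adjusted p = 0.428) and 0.10 (adjusted p = 0.378). Other probes gave 0.10 and -0.05 for BOC and -0.01 for CDON, and 1 of those BOC probes rose with age by 0.50 (adjusted p = 0.0273), against 0.01 for the brightest. The glypican GPC4 differed by 0.14 (adjusted p = 0.285) and SMO, the signal transducer itself, by 0.03.

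Of the transcription factors 0 of 5 had a tested probe, and neither GLI1, GLI2 and GLI3 nor PTCH1, HHIP and SHH are analysed here. The targets that report most directly on the pathway were therefore not read. Among the 10 of 30 target genes that were measured, none was called between lines. CCND1, the cyclin that drives entry into the cell cycle, differed by -0.24 (SE 0.08, adjusted p = 0.139). By age its difference was 0.18, -0.32, -0.17 and -0.64 at weeks 1, 3, 5 and 7. A second CCND1 probe gave -0.09 over ages (adjusted p = 0.453). SFRP1, a secreted inhibitor of Wnt signals, differed by 0.19 (adjusted p = 0.317), and SNAI2, a transcriptional repressor, by 0.14 (adjusted p = 0.448). BMP4, a secreted growth factor of early pituitary development, was -0.15 between lines (adjusted p = 0.277) and fell with age by 0.32 (SE 0.10, adjusted p = 0.0286). The age call was lost in 12 of 48 other settings, and in the authors' table the line difference was -0.86, also not called.

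Of the partners of SUFU and the machinery that turns over GLI proteins, 10 of 20 genes were measured and none was called between lines. FBXL17, a ubiquitin ligase subunit that marks SUFU for degradation in human cells, was 0.07 between lines (adjusted p = 0.57) and rose with age by 0.42 (SE 0.09, adjusted p = 0.00194). CUL1, the scaffold of the same class of ligases, fell with age by 0.26 (SE 0.09, adjusted p = 0.043), a call that was lost in 19 of 48 other settings and had the opposite sign, 0.030 (adjusted p = 0.839), in the authors' table. ITCH, a ligase that acts on GLI1 and SUFU, differed between lines by 0.19 (adjusted p = 0.452). FBXW11, CUL3 and SKP1, further ligase parts, differed by -0.18 (adjusted p = 0.31), -0.17 (adjusted p = 0.293) and -0.16 (adjusted p = 0.402).

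Of the kinases of the pathway, with subunits of protein kinase A, 9 of 18 genes were measured, and none of their brightest probes was called in either comparison. CSNK1G1 had the largest line difference, -0.31 (SE 0.10, adjusted p = 0.131), and CSNK1E and CSNK1D, which belong to the same casein kinase family, had 0.22 (adjusted p = 0.243) and 0.15 (adjusted p = 0.274). PRKAR1A, a regulatory subunit of protein kinase A, had -0.17 (adjusted p = 0.28). Its other probes had -0.19 and 0.05 between lines, and both rose with age, by 0.28 (adjusted p = 0.0345) and 0.51 (adjusted p = 0.0339), against 0.15 (adjusted p = 0.348) for the brightest. Members of 1 family thus stood on both sides of 0.

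Of the genes of the primary cilium, the organelle in which the signal is passed on, 20 of 43 were measured and none was called between lines. IFT20, a part of the intraflagellar transport machinery, had 0.24 (adjusted p = 0.192), with -0.13 (adjusted p = 0.471) on its second probe, and IFT81 had 0.14 (adjusted p = 0.278). BBS4 and BBS7, parts of the complex that carries membrane proteins to the cilium, had 0.16 (adjusted p = 0.281) and -0.16 (adjusted p = 0.307). A second BBS7 probe fell with age by 0.47 (adjusted p = 0.0229), while the brightest gave 0.20 (adjusted p = 0.2). With age, KIFAP3 and KIF3A, which form part of the kinesin motor that runs along cilia, rose by 0.35 (SE 0.09, adjusted p = 0.00832) and 0.34 (SE 0.11, adjusted p = 0.0437). The KIF3A call was lost in 23 of 48 other settings. With the header day in the model no age change of any Hedgehog gene was called, and in that fit none of all tested probes was. In the comparisons within a day and an age, week 7 shared no day with week 1. Changes with age and with header day thus cannot be fully told apart.

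Genes next to SUFU on its chromosome were read to see whether the line difference extended over the region. Their order was taken from RefSeq's annotation of the assembly GRCg7b, with no positions, since the build behind the probes is not given in the sources used here. Of the 10 protein-coding genes on either side, 12 of 20 were measured, 0 were called for a line difference, and none reached an unadjusted p of 0.05. Since 0.696% of all tested probes were called and 16.2% reached that p, the count of 0 says little of these 12 genes. They ranged from -0.51 to 0.15 with a median of -0.01, each read from its brightest probe. Several have further tested probes, such as ACTR1A with 4 in all, whose values are not given here. The nearest measured genes were ACTR1A, of the dynactin complex, at -0.01 (SE 0.12) on one side, and TRIM8 at 0.02 (SE 0.06), ARL3 at -0.02 (SE 0.05) and SFXN2 at 0.01 (SE 0.09) on the other. SEMA4G, a semaphorin 6 genes away, had the widest error, at -0.51 (SE 0.53). Its difference was -2.23 at week 1 and 0.01, 0.14 and 0.06 at weeks 3, 5 and 7. CYP17A1, an enzyme of steroid synthesis 5 genes away, had 0.15 (SE 0.11). The remaining 6 genes, C10orf2, SLF2, WBP1L, BORCS7, AS3MT and NT5C2, lay between -0.12 and 0.11.

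**Figure D4:**
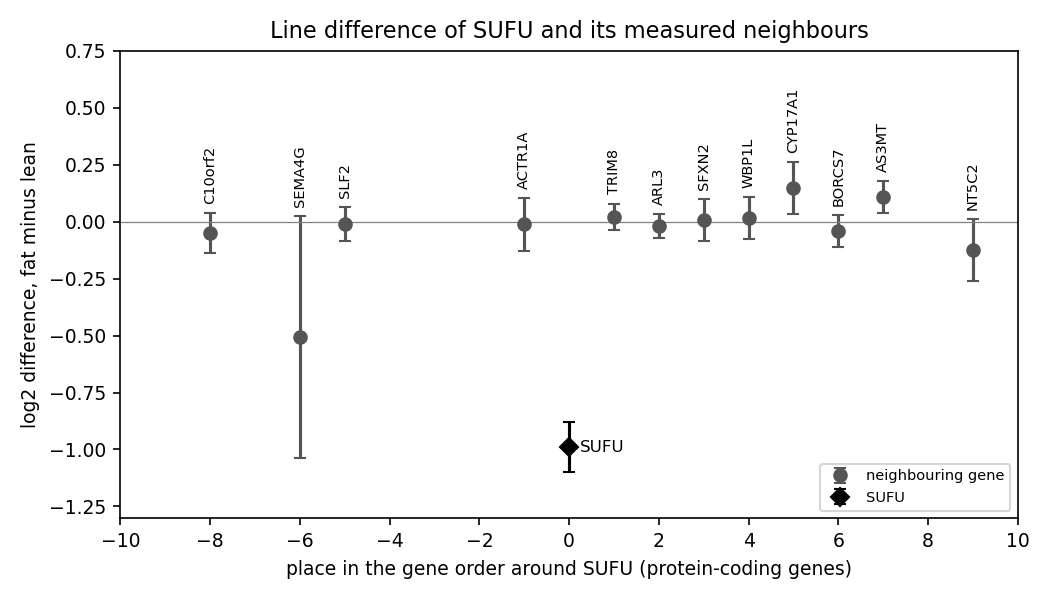
Log2 difference between lines, fat minus lean, with its SE, for SUFU (diamond, place 0) and the 12 measured genes among the 10 protein-coding genes on either side, in gene order. SUFU is at -0.99, and the neighbours lie between -0.51 and 0.15.

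The genes whose ratios followed SUFU most closely over the 30 arrays were ranked by Pearson's correlation among 5704 genes, whose median was -0.03. SUFU ratios were largely split by line, with 14 of the 15 fat arrays below every lean array. All genes also share the arrays and the pool, so these correlations describe likeness only. CD69L, a gene named for its likeness to the lymphocyte receptor CD69, came first with 0.90. Its ratios ran from 0.31 to 1.38 in lean birds, with a median of 0.47, and from -1.23 to 0.31 in fat birds, with a median of -0.47. CAD, an enzyme that begins pyrimidine synthesis, came second with 0.86. Its ratios ran from -0.21 to 0.53 in lean birds and from -0.97 to -0.06 in fat birds. Both genes therefore carried the same split between lines as SUFU, with line differences of -0.98 and -0.69, which are given without a test because likeness to SUFU chose them.

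**Figure D5:**
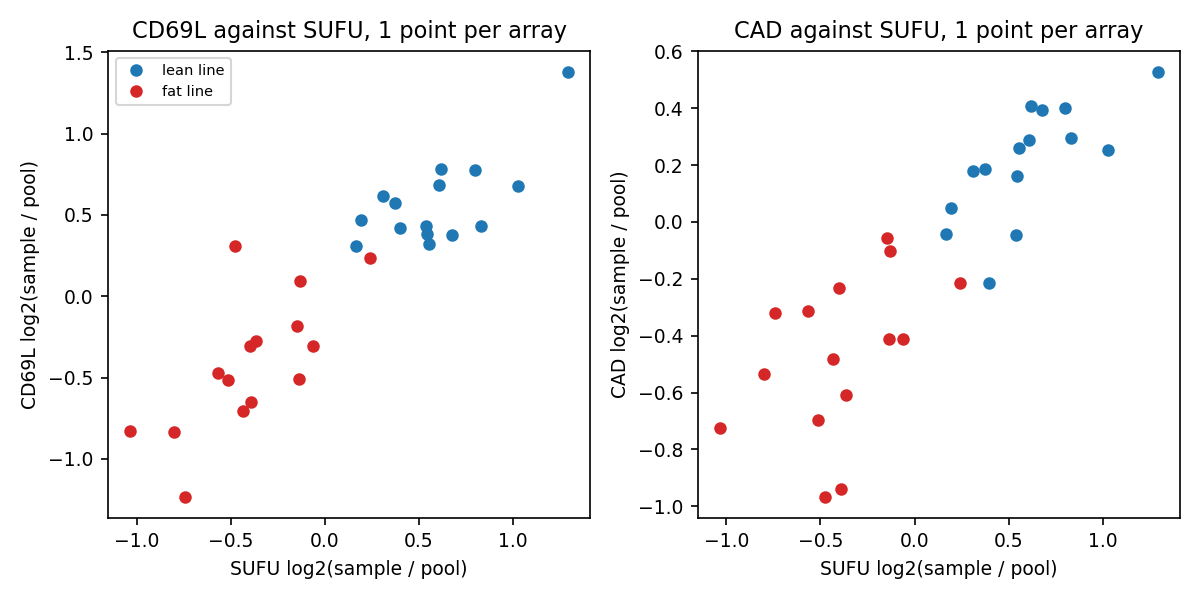
Log2 ratio of CD69L (left) and CAD (right) against that of SUFU, with 1 point per array (30 arrays), lean in blue and fat in red. The Pearson correlation over all arrays is 0.90 for CD69L and 0.86 for CAD, and 0.67 and 0.60 after the mean of each group is taken off.

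The likeness also held to a part within lines. CD69L correlated with SUFU at 0.69 over the 15 lean and at 0.69 over the 15 fat arrays, and CAD at 0.70 and 0.45. By rank (Spearman) the values were 0.46 and 0.69 for CD69L, and 0.78 and 0.47 for CAD. Lean week 7 replicate 3 was the highest lean array for both SUFU, at 1.29, and CD69L, at 1.38. After the mean of each group was taken off, Pearson's correlations were 0.67 for CD69L and 0.60 for CAD. The other 3 CAD probes were less like SUFU. Their correlations with SUFU were 0.53, -0.16 and -0.39, and their line differences -0.19, 0.10 and 0.08, in the same order. CD69L has no other tested probe. Next in the ranking came TMEM47, a membrane protein of cell junctions, with 0.72, and the tetraspanins TSPAN7 and TSPAN6, with 0.72 and 0.71. A second TSPAN7 probe had 0.73, while second probes of TMEM47 and TSPAN6 had 0.12 and 0.28.

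At the other end, RNF126 with -0.70, NENF with -0.69, KCTD17 with -0.68, SLC35B3 with -0.68 and CENPQ with -0.65 were the most opposite genes. RNF126 is a ubiquitin ligase, NENF a secreted neurotrophic factor, and CENPQ a protein of the centromere. Within groups, where the lines play no part, the brightest probes of TIA1, HDAC4, GOT2, PSMB5 and YOD1 ranked highest among genes. Their values were 0.77, 0.73, 0.72, 0.71 and 0.71. None of these 5 was among the first 5 over all arrays. There a second TIA1 probe had -0.15, against 0.49 for the brightest, and a second GOT2 probe 0.56, as the brightest had. In lean birds of week 7, SUFU had its widest SD, 0.50. There TIA1, HDAC4, GOT2 and PSMB5 also had theirs, at 0.39, 0.50, 0.40 and 0.55. That group holds 3 arrays, and 2 for HDAC4. How far the correlations within groups rest on it was not tested.

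Markers of other cell types that a pituitary sample can hold were read beside SUFU, and none was called between lines in any of the lists. The 10 measured markers of lymphocytes and macrophages were higher in fat in 10 of 10, with a median of 0.25, and 6 had an unadjusted p under 0.05. Of all tested probes 53.8% were higher in fat and 16.2% had such a p. Their mean ratio ran from -0.47 to 0.02 in lean and from -0.31 to 0.19 in fat arrays. The 5 markers of red blood cells were higher in fat in 5 of 5, with a median of 0.14, and those of muscle, cartilage and bone were higher in 9 of 10, with a median of 0.10. Of the 14 pituitary hormones and factors 10 were lower in fat, with a median of -0.09, and 2 had an unadjusted p under 0.05. Their mean ratio ran from -0.34 to 0.38 in lean and from -0.27 to 0.22 in fat arrays. Their line differences ran from -0.45 to 0.30. In the other lists, 6 of 18 markers of fibroblasts and matrix and 3 of 10 of endothelium were lower in fat, each list with a median of 0.06. So were 3 of 6 of folliculostellate and stem cells (median 0.04) and 5 of 11 of the posterior lobe, glia and neurons (median 0.01). The blood, immune and muscle markers thus mostly had the opposite sign to SUFU, and the hormones and factors were mixed. The part of any of these lists in the line difference of SUFU was not tested.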

How the data were processed

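Per the file headers, the authors' per-array files were written by TIGR Spotfinder 2.2.4 and hold deposited spot intensity and local background of both dyes, as sums over pixels, with the area, a quality score and quality marks that Spotfinder gave each spot. The authors deposited a table of log2 ratios whose normalization is not given in the sources used here, and its columns correlated with the ratios computed here at 0.388 to 0.647 across probes. It served as an alternative. The fat file of week 7 replicate 2 had its background taken off already, and this was added back.

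Intensities were divided by spot area, corrected by normexp (offset 50) and normalized within arrays by loess, in R 4.3.3 with limma 3.58.1. Spots with a bad quality mark were left out. A probe was tested when usable on 23 of 30 arrays and on 2 arrays of each group. One limma model with 8 group means and 22 residual degrees of freedom gave every two-sided moderated test, with Benjamini-Hochberg adjustment over 14648 probes at a threshold of 0.05. The brightest probe stands for a gene. The platform's table names 1 symbol for 10601 spots, several for 0 and none for 8599, with older symbols matched through RefSeq's table.

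Named genes are, of each Hedgehog role, up to 4 with the largest line difference and all that passed a threshold, the measured neighbours, and the 5 genes most and least like SUFU. The members and lists were chosen with earlier results of these data known. The model was checked on simulated data. The replicate number was not a term of the model, and a fit with it as a block was an alternative. The number of arrays limits the precision. Figures were drawn with matplotlib 3.10.9.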

Additional observations from a re-analysis of the deposited data

Results flagged for a closer look

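Within groups of 4 arrays, 18 sets of SUFU values were searched for an array far from the others, and 1 was found. In lean birds of week 1, replicate 4 had a SUFU log2 ratio of 0.168, while the other 3 arrays lay close together between 0.54 and 0.61. By the critical value used, chance alone marks about 5% of such sets. Without that array the mean line difference was -1.02, against -0.99 with it.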

How the results depend on the processing

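SUFU was lower in fat at every age in all settings run. Since the lines did not overlap at any age, leaving out arrays could not have changed that sign. Over ages its difference lay between -0.87 and -1.05 except in the authors' table, with -1.63 over ages and -1.61, -1.85 and -2.03 at weeks 1, 3 and 5. At week 7 it was -0.62 with scaling between arrays. Leaving out arrays gave -1.05 to -0.92. No age change of SUFU passed the threshold in any setting, and the change from week 1 to 7 turned to -0.018 with all 32 arrays, with a range of -0.047 to 0.40 over left-out arrays. The count of Hedgehog genes called between lines, 1 here, was 0 with bad-mark spots kept, with dim spots left out, with all 32 arrays, with the header day, in the authors' table and with the mean of all probes of a gene. Leaving out arrays gave 0 to 2, with 0 in 26 of 34 cases. With the replicate number as a block it was 2, CCND1 being added (adjusted p = 0.0445), and 299 of all probes were called between lines against 102. The block changed the call of no SUFU result. Same-number arrays of the lines deviated together above 0.1 in 10 of 15 pairs (median correlation 0.149), and 21 of 30 arrays correlated best with their own number, a hint of shared structure in the data. The pairing was not taken as given, since 5 pairs were not above 0.1 and no label says that a number marks a shared batch or day. The file headers do show shared days for many pairs. The block shared each replicate number across all ages, so pairs within an age were not fitted as such. All 10 comparisons within a day and an age were made of arrays with the same replicate numbers in both lines. The count of Hedgehog genes that changed with age, 7 here, was 4 with all 32 arrays, 3 with array weights, 0 with the header day, 2 in the authors' table and 3 to 12 with arrays left out. It was 12 without fat week 7 replicate 1, 11 without lean week 7 replicate 4, and 4 without lean week 1 replicate 1 or fat week 1 replicate 2. CUL1 turned to 0.030 in the authors' table. No neighbour gene was called in any of 49 settings. Of all tested probes, the line count of 102 became 40 with bad-mark spots kept, 38 with all 32 arrays, 155 with array weights, 36 in the authors' table and 22 to 298 with arrays left out. The count of 2327 from week 1 to 7 became 1102 with scaling, 1297 with quantile normalization, 1318 with all 32 arrays, 940 with array weights, 0 with the header day, 571 in the authors' table and 855 to 3193 with arrays left out. The causes of these shifts were not tested.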

Other observations

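Among all tested probes, not only the brightest probe of each gene, 10 correlated with SUFU at 0.8 or more over the 30 arrays. They lie in 8 different grid blocks of the slide, and 7 of them carry no gene symbol. Their line differences ran from -1.01 to -0.55, all lower in fat. The 3 with a symbol were CD69L, CAD and CLC2DL5, a lectin-like gene with a correlation of 0.81. The other 4 CLC2DL5 probes correlated with SUFU at 0.54, 0.39, -0.25 and -0.17. These probes were chosen after their values were seen, and the values are a description.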
